A study of Mus musculus with 39 samples.

Results

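The cell cycle genes described here are 50 named genes of cell division, whose values were read from the expression tables of sorted monocytes by gene symbol. They were divided by role into 8 G1 cyclins and kinases, 13 genes of DNA replication, 24 genes of mitosis and 5 genes of chromatin, tubulin and nuclear lamina. Of the 50, 48 had values in every one of the 4 monocyte experiments and 49 in at least 1 of them, out of 11556 genes with values anywhere in the series. Ccnd2 had values in bone marrow at 17 h and in spinal cord alone, and Ccnd1 is not analysed here. The series holds 39 mouse RNA-seq libraries, of which the 29 of monocytes were used: 21 from bone marrow and 8 from spinal cord.

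In bone marrow, wild type C57BL/6 mice with free access to food were compared with mice whose food had been removed, after 4 h (n = 4 fed and 4 fasted) and after 17 h (n = 3 fed and 4 fasted). The third marrow experiment compared fed CCR2-/- mice, which lack the chemokine receptor that lets monocytes leave the marrow, with fed C57BL/6 mice (n = 3 and 3). In spinal cord, C57BL/6 mice in which EAE had been induced (experimental autoimmune encephalomyelitis, an inflammation of brain and spinal cord) were either fed (n = 4) or had food taken away and returned in alternating cycles of 24 h over 4 weeks (n = 4). Water was always available, the bedding of fasted mice was changed, and all mice were 8 to 12 weeks old. Cells were sorted as monocytes on a FACS Aria, and the labels do not say whether the libraries of a group came from separate animals, so that p-values measure the spread between libraries.

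Cells that divide pass from G1, where D-type cyclins with Cdk4 and Cdk6 and cyclin E with Cdk2 release the E2F factors, through DNA replication to mitosis. Many replication genes are switched on by E2F at the G1/S boundary, and many mitotic genes later, through CHR and CCAAT elements bound by DREAM, MuvB and NF-Y. Monocytes arise in bone marrow from dividing progenitors, and circulating monocytes are largely not in cycle. In bulk samples such as these, fewer dividing cells and less of these transcripts per cell cannot be told apart.

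Promoters of replication and mitosis members differed in the elements they hold. Promoters (250 bases before to 50 after the first RefSeq start, build GRCm38.p6) were at hand for 40 of the 50 members. An E2F-type sequence (TTTCGCGC, TTTGGCGC, TTCCCGCC or TTTCCCGC, on either strand; the last pair can match in overlap) was found in 7 of 12 promoters of replication genes, in 1 of 20 of mitosis genes and in 3.57% of all 27025 promoters. A CHR-type sequence (TTTGAA or TTTAAA, either strand) was found in 18 of 20 mitosis promoters, in 4 of 12 replication promoters and in 27.8% of all. CCAAT, on either strand, was found in 18 of 20 mitosis promoters, in 8 of 12 replication promoters and in 37.9% of all. The promoters of 4 members are shown, each 5′ to 3′ on its gene's strand, because the results below turn on these genes: Mcm5 for replication, with the E2F-type sequences in capitals, and Plk1, Kif11 and Ube2c for mitosis, with CHR-type and CCAAT sequences of either strand in capitals.
Mcm5, chr8:75109259-75109558, plus strand: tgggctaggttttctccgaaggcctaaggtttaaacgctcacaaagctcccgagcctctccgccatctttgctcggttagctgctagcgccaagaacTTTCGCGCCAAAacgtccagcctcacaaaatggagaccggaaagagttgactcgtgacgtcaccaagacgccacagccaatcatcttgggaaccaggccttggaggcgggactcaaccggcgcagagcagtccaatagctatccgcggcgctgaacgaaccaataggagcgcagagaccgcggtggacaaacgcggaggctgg
Plk1, chr7:122159185-122159484, plus strand: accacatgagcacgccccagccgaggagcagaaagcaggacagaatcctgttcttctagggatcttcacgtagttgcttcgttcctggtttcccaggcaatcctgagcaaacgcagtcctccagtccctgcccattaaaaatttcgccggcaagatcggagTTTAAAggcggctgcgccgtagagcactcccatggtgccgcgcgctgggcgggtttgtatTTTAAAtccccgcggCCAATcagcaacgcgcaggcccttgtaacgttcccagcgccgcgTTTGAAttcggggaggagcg
Kif11, chr19:37376132-37376431, plus strand: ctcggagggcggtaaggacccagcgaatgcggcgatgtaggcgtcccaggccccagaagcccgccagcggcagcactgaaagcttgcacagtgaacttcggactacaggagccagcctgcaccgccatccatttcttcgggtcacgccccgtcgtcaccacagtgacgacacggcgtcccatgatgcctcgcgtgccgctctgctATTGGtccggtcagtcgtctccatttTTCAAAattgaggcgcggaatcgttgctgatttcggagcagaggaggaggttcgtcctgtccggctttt
Ube2c, chr2:164769679-164769978, plus strand: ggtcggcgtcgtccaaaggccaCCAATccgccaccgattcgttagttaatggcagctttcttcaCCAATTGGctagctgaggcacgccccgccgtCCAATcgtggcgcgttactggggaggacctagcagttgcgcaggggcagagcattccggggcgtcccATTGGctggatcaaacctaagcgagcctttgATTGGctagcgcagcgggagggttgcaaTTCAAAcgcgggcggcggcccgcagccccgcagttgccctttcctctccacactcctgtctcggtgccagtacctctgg
In Mcm5 the pair of overlapping E2F-type matches starts 153 bases before the start. The Mcm5 promoter also holds a CHR-type match 221 bases before the start, left in lower case. CCAAT lies there 77 and 22 bases before the start and 7 bases after it, also in lower case. In Plk1, CHR-type matches lie 89 and 29 bases before the start and 31 bases after it, and CCAAT lies 14 bases before it. Kif11 holds 1 CHR-type match 19 bases before the start and 1 CCAAT on the opposite strand 45 bases before it, and Ube2c holds 1 CHR-type match 29 bases before the start and 6 CCAAT matches. A match describes these letters alone.

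Values are given in TPM, a transcript level scaled for transcript length and library total, and differences are log2(TPM + 1) with the standard error (SE). Tests are limma over all genes of an experiment, and genes with a p under 0.05 after Benjamini-Hochberg adjustment are termed called. Read numbers were not stated, which leaves the depth unknown. Libraries of a group correlated at 0.964 to 0.994 in bone marrow, 0.928 to 0.97 in fasted spinal cord and 0.841 to 0.988 in fed spinal cord. Libraries in 2 places stood apart. The fed marrow libraries of 17 h had a median gene at 15.5 to 17.2 TPM, against 34.5 to 37.1 in the fasted ones, and their 100 highest genes held 43.5 to 46.2% of all TPM, against 31.6 to 34.0%. Fed spinal cord libraries 1 and 2 had a summed level of 184001 and 187826 TPM over the neutrophil markers (11 of 12 listed markers with values), against 3162 to 17258 in the other 6 libraries of spinal cord. All 12 monocyte markers had values in every experiment, and Ly6c2 stood at 2037 to 12585 TPM, highest in fed marrow of 17 h. In those fed libraries the monocyte markers Csf1r and Itgam were low, at 46.5 to 82.9 and 18.4 to 29.9 TPM. The fasted libraries of 17 h held 365 to 529 and 229 to 325 TPM of them.

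**Figure D1:**
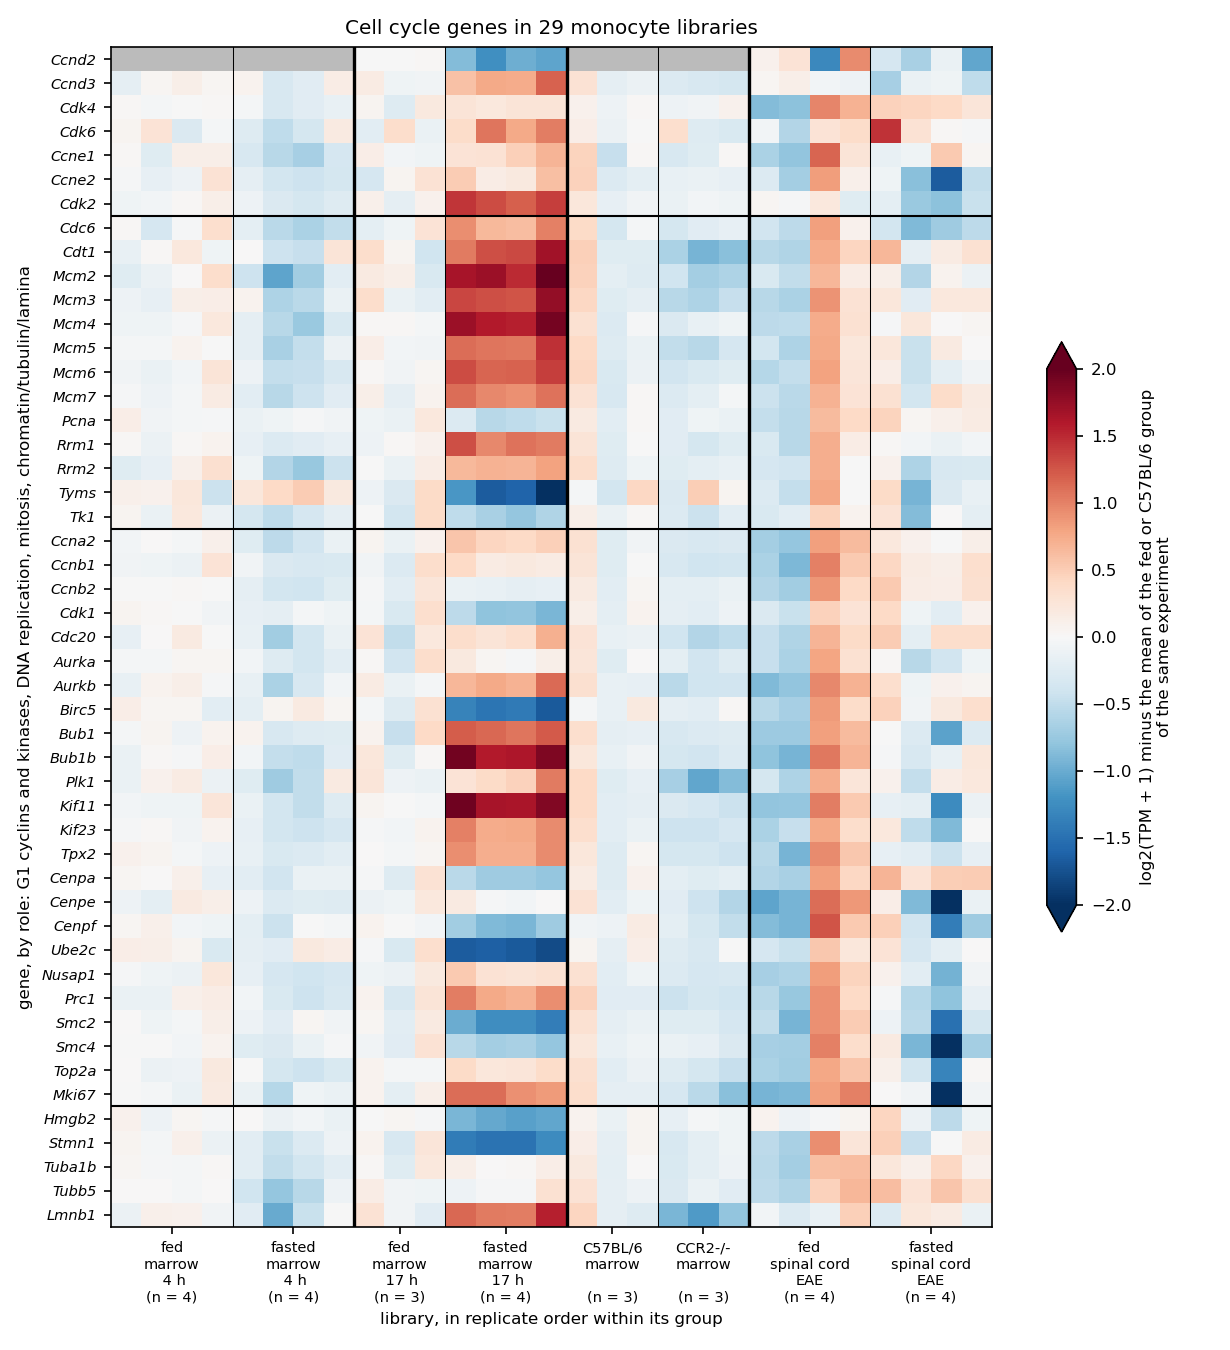
Each cell is the log2(TPM + 1) of 1 gene in 1 library minus the mean of the fed or C57BL/6 group of the same experiment (rows, 49 genes by role; columns, 29 libraries; grey, not analysed here). Thick lines part the 4 experiments and thin lines the groups; the fasted marrow libraries of 17 h hold strong colours in both directions, fasted spinal cord library 3 holds single strong low ones (Mki67, Cenpe, Smc4), and within fed spinal cord libraries 1 and 2 are low and 3 and 4 high for most rows.

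The members were measured at different levels in the 8 groups. Mki67, the proliferation antigen, averaged 128 TPM in C57BL/6 marrow, 118 and 101 in fed and fasted marrow at 4 h, 85.3 in CCR2-/- marrow, 44.9 in fasted marrow at 17 h, 36.0 and 23.1 in fed and fasted spinal cord, and 22.0 in fed marrow at 17 h. The 24 mitosis genes summed to 4423 to 6089 TPM in C57BL/6 marrow and 1757 to 5005 TPM in fed spinal cord. The 13 replication genes summed to 1753 to 2614 TPM and 897 to 2085 TPM in the same groups. The experiments may have been processed apart, so these levels stand side by side with no test between experiments.

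**Figure D2:**
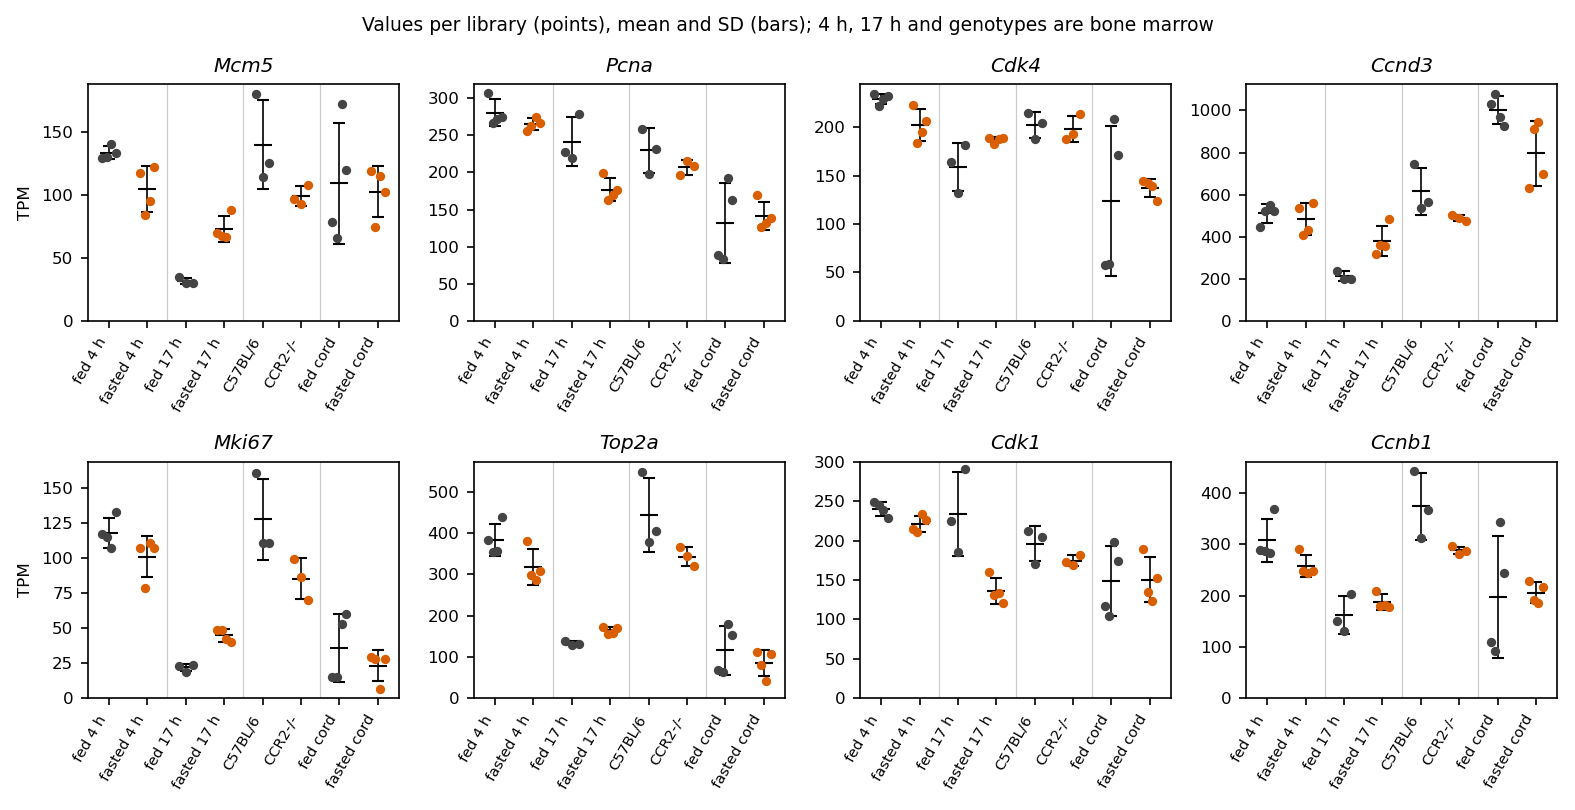
TPM of 8 genes (panels) in the 8 monocyte groups (x axis; points are libraries, bars the mean and SD, every axis from 0). Mki67 was 107 to 133 TPM in fed marrow at 4 h and 18.9 to 23.9 TPM in fed marrow at 17 h; in fed spinal cord the points of most panels fall into a low and a high pair.

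After 4 h without food, most members had a slightly lower mean in the fasted libraries of marrow monocytes, and none passed the test. Of 48 members, 0 were called (limma; background 0.265% of 9428 genes called higher and 0.159% lower), and 32 had an unadjusted p under 0.05. Their differences ran from -0.59 to 0.33 with 46 of 48 below 0 and a median of -0.27, beside a median of -0.07 and 66.4% below 0 over all genes. The fasted group lay wholly below the fed one for 17 members and wholly above for 0, where 6.37% and 2.44% of all genes did. Replication genes had a median of -0.34 (12 of 13 below 0), mitosis genes -0.24 (23 of 24), the G1 genes -0.24 (6 of 6) and the chromatin, tubulin and lamina genes -0.32 (5 of 5). Centring each library on its median gene left 45 of 48 below 0 with a median of -0.23.

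The 6 subunits of the MCM helicase, which unwinds DNA at replication forks, differed by -0.59 to -0.31. Mcm5 was at 129, 130.2, 140.4 and 133 TPM in the fed libraries and at 117, 84.1, 95.3 and 122 TPM in the fasted ones. Mcm4 was at 95.2, 94.8, 99.3 and 117 TPM fed and at 88.9, 68.5, 60.4 and 82.0 TPM fasted. In both genes every fasted library was below every fed one, with fasted libraries 2 and 3 lowest, and the differences were -0.36 ± 0.11 (SE, adjusted p = 0.2) and -0.44 ± 0.12 (adjusted p = 0.16). Pcna, the sliding clamp that holds the polymerase on DNA, was at 307, 267, 272 and 275 TPM fed and at 256, 263, 275 and 267 TPM fasted, with overlap and a difference of -0.08 ± 0.08.

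Among G1 genes, Ccne1, the cyclin E that starts S phase with Cdk2, was at 37.6, 31.2, 40.3 and 40.2 TPM fed and at 29.5, 25.1, 23.1 and 29.1 TPM fasted (-0.47 ± 0.12, adjusted p = 0.13). Its groups did not overlap. Cdk4 was at 234, 222, 229 and 232 TPM fed and at 223, 184, 195 and 206 TPM fasted, Cdk6 at 21.8, 25.4, 16.8 and 20.3 TPM fed and at 17.2, 14.4, 16.2 and 23.8 TPM fasted. Both kinases pair with D cyclins and both groups overlapped, as did those of Ccnd3 at 448, 522, 552 and 521 TPM fed and 537, 409, 433 and 562 TPM fasted.

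Of the mitosis genes, Ccna2, cyclin A, was at 329.8, 344, 332 and 366 TPM fed and at 289, 239, 262 and 313 TPM fasted (-0.32 ± 0.09, adjusted p = 0.17), without overlap. Cdk1, the kinase of mitotic entry, was at 249, 245, 239 and 229 TPM fed and at 215, 211, 234 and 226 TPM fasted. Its partner cyclin B, Ccnb1, was at 289.5, 288, 283 and 369.8 TPM fed and at 291, 249, 244 and 248 TPM fasted. The groups of Cdk1 and Ccnb1 overlapped, in Ccnb1 by fasted library 1 alone. Mki67 was at 117, 115, 107 and 133 TPM fed and at 107, 78.9, 110.5 and 107 TPM fasted, and Top2a, the topoisomerase that untangles chromosomes, at 383, 353, 357 and 438 TPM fed and at 381, 299, 285 and 307 TPM fasted. Their differences were -0.23 ± 0.12 and -0.27 ± 0.11, with overlap in both. Tubb5, a tubulin of the spindle, was at 241, 239.8, 232 and 241 TPM fed and at 180.5, 139, 162 and 221 TPM fasted (-0.46 ± 0.12, adjusted p = 0.14).

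Fasted libraries 2 and 3 held the lowest value of 27 and 16 of the 48 members, and fed library 4 the highest of 23. Without fasted library 1, Kif23, a kinesin of cytokinesis, was called lower (-0.37, adjusted p = 0.047), and without fasted library 4, Tubb5 was (-0.58, adjusted p = 0.034). Both are single calls, Kif23 named after its values were seen. Beside this, markers of marrow progenitors (7 of 12 with values; Kit, Gfi1, Sox4, Hmga2 and Gata2 are not analysed here) summed to 2475 to 3177 TPM in fed and 1618 to 2772 TPM in fasted libraries, and monocyte markers to 15554 to 18097 and 18889 to 21809 TPM. B cell markers (3 of 10 with values) summed to 876 to 991 TPM fed and 599 to 780.3 TPM fasted, and neutrophil markers (6 of 12) to 223 to 302 and 308 to 446 TPM. Their part in the lower division genes was not tested. Of the division genes outside the list, 0 of 45 further replication genes, 0 of 52 further mitosis genes, 0 of 19 cycle transcription factors and 0 of 14 inhibitors of division were called in limma, with 15, 26, 4 and 2 at an unadjusted p under 0.05. Their medians were -0.21, -0.25, -0.2 and -0.1.

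**Figure D3:**
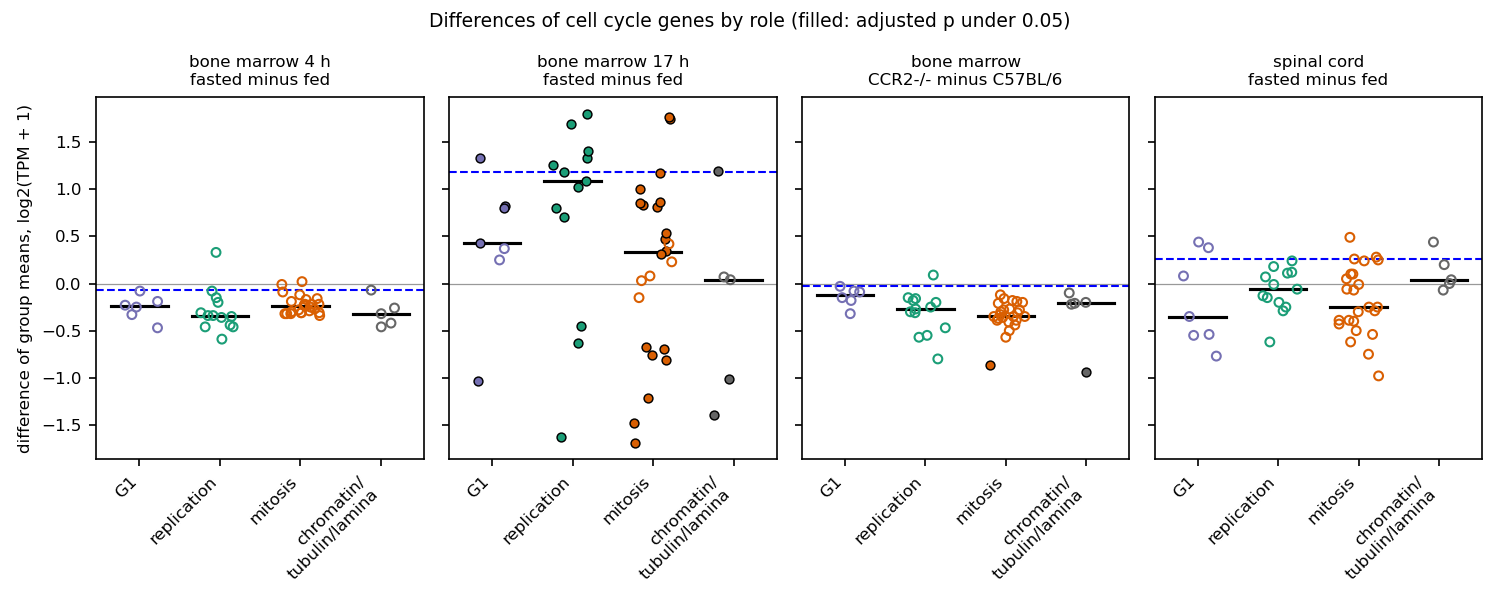
Difference of group means on the log2(TPM + 1) scale for each gene (points; filled, adjusted p under 0.05) by role, in the 4 comparisons; black bars are medians of a role and the dashed line is the median of all genes. At 4 h and in CCR2-/- marrow nearly all points lie below 0 within 1 unit, while at 17 h they run from -1.69 to 1.80 around an all-gene median of 1.18.

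After 17 h without food, 13 members were lower in fasted monocytes under every one of 4 scalings, among them Ube2c, Birc5 and Cdk1 of mitosis, Tyms and Tk1 of nucleotide synthesis, and Hmgb2 and Stmn1. No member was called higher under all 4. Mcm2, Mcm4, Bub1b and Kif11 were called higher under all but the scaling on transcript length, which was chosen after the data were seen. In the values as deposited 10 of 13 replication genes, the MCM subunits among them, were called higher, about the share of all genes. As deposited, 27 of 49 members were called higher and 13 lower, against 75.4% and 14.0% of all 9134 genes. Since the median gene was 1.18 higher in the fasted libraries, the split depended on the scaling: 17 higher and 22 lower after quantile normalisation (background 42.3% and 32.2%), 4 and 30 with each library centred on its median gene (40.9% and 36.4%), and 1 and 36 with each library's trend on transcript length removed (36.1% and 30.8%). The last scaling was chosen after the data were seen, and with the median length over all transcripts of a gene in place of the longest coding one it gave 9 and 28 (37.6% and 35.8%). The fasted group lay wholly above the fed one for 28 members and wholly below for 13 as deposited, where 74.8% and 13.4% of all genes did. Called in 1 direction under all 4 scalings were 0 members higher and 13 lower, against 26.7% and 11.4% of 8864 genes, and 28 of 49 members changed sign between scalings. These 13 were the same members as were called lower as deposited. The other scalings brought the all-gene median from 1.18 to between 0.08 and 0.13, which lowered most differences. Agreement between scalings is therefore weak evidence for the 13.

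The 13 called lower under all 4 scalings were Ccnd2, Cdk1, Pcna, Tyms, Tk1, Birc5, Cenpa, Cenpf, Ube2c, Hmgb2, Stmn1, Smc2 and Smc4. They belong to every role: 1 G1 gene, 3 replication genes, 7 mitosis genes and 2 of the chromatin and tubulin group. Tyms and Tk1 each make thymidylate, Tk1 from salvaged thymidine. Cenpa and Cenpf act at the centromere and kinetochore, and Smc2 and Smc4 are the core pair of condensin, which compacts chromosomes. Pcna, Tyms and Stmn1 have related copies or pseudogenes in the mouse annotation, and how reads were split among them was not stated, so their values are uncertain to that extent.

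Ube2c, the enzyme that passes ubiquitin on to the targets of the anaphase-promoting complex, was at 512, 420.3 and 659 TPM in the fed libraries and at 163, 167, 162 and 149.7 TPM in the fasted ones. Its difference was -1.69 ± 0.14 on the log2 scale (adjusted p = 1.3e-06). Birc5, survivin of the chromosomal passenger complex, was at 574, 493 and 735 TPM fed and at 234, 215, 221 and 184 TPM fasted. Its difference was -1.48 ± 0.14 (adjusted p = 3.7e-06). In both genes every fasted library lay below the lowest fed one, and the fasted values lay closer together than the fed ones. Cdk1 was at 225, 186 and 291 TPM fed and at 160.3, 131, 133 and 121 TPM fasted (-0.76 ± 0.15, adjusted p = 0.00091). In fed marrow at 4 h and in C57BL/6 marrow, Ube2c averaged 262 and 222 TPM and Birc5 264 and 238 TPM. At 17 h they averaged 530.4 and 601 TPM fed and 161 and 213 TPM fasted. Cdk1 averaged 240.5 and 196 TPM in those other groups and 234 TPM fed at 17 h. Levels were not tested between experiments.

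Hmgb2, a chromatin protein of dividing cells, was at 2592, 2686 and 2573 TPM fed and at 1395, 1287, 1238 and 1279.5 TPM fasted (-1.01 ± 0.08, adjusted p = 1.0e-06). Stmn1, which takes microtubules apart, was at 1660.2, 1259 and 1871 TPM fed and at 596, 565, 567 and 660.4 TPM fasted (-1.4 ± 0.13, adjusted p = 3.7e-06). Both stood highest of all members in the fed libraries, and their groups lay apart. In fed marrow at 4 h and in C57BL/6 marrow, Hmgb2 averaged 1693 and 1408 TPM and Stmn1 705 and 694 TPM. Every fed library of 17 h was above these means. Pcna was at 227, 219 and 279 TPM fed and at 199, 163, 169 and 176 TPM fasted (-0.45 ± 0.11, adjusted p = 0.0037). Ccnd2 was low throughout, at 9.52, 9.46 and 9.68 TPM fed and at 4.8, 3.53, 4.39 and 4.06 TPM fasted (-1.03 ± 0.13, adjusted p = 2.5e-05).

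The replication genes divided: Cdc6, Cdt1, Mcm2 to Mcm7, Rrm1 and Rrm2 were called higher as deposited, by 0.71 to 1.8, and Pcna, Tyms and Tk1 lower. Mcm4 was at 20.2, 20.2 and 19.2 TPM fed and at 67.0, 61.5, 60.1 and 77.9 TPM fasted (1.69 ± 0.11, adjusted p = 3.6e-07). Mcm6 was at 64.4, 59.9 and 65.2 TPM fed and at 158, 143, 145 and 167 TPM fasted (1.26 ± 0.09). Mcm7 was at 58.1, 47.1 and 56.3 TPM fed and at 118, 105, 102 and 115 TPM fasted (1.02 ± 0.1). For all of these, no fasted library of 17 h was as low as a fed one. In fed marrow at 4 h and in C57BL/6 marrow, these genes averaged higher than in either group of 17 h. Mcm4 averaged 102 and 113 TPM there, Mcm6 254 and 270.4 TPM, and Mcm7 170.5 and 162 TPM. The MCM subunits as a group were called higher in 6 of 6 as deposited (1.02 to 1.8) and after quantile normalisation (0.31 to 0.81), in 2 of 6 after centring (-0.07 to 0.7), and in 0 of 6, with 3 called lower, once the length trend was removed (-0.34 to 0.37). Of all genes, 75.4%, 42.3%, 40.9% and 36.1% were called higher under these scalings in turn, and 30.8% lower under the last.

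Mcm5 was at 34.4, 30.2 and 29.9 TPM fed and at 69.7, 67.4, 66.4 and 88.1 TPM fasted (1.18 ± 0.12), the size of the median gene's difference, with 0.09 after centring and -0.25 with the length trend removed. Rrm1, the large subunit of ribonucleotide reductase, was at 55.7, 60.7 and 63.4 TPM fed and at 147, 118, 128 and 124 TPM fasted (1.09 ± 0.1; 0.00 after centring and -0.47 without the length trend). Both lay near the difference of the median gene as deposited.

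The mitosis genes had 12 members called higher and 7 lower as deposited, with a median of 0.33. Of all genes, 75.4% were called higher as deposited and 14.0% lower. After centring, 2 mitosis genes were called higher and 18 lower, with a median of -0.77 beside 0.09 for all genes. The replication genes had 2 and 4 with a median of 0.00, and the shares of all genes were then 40.9% and 36.4%. Kif11, the kinesin that pushes the spindle poles apart, was at 26.7, 25.6 and 25.1 TPM fed and at 102, 83.0, 81.7 and 95.6 TPM fasted (1.77 ± 0.1, adjusted p = 2.2e-07). Bub1b, the BubR1 kinase of the spindle checkpoint, was at 25.9, 18.5 and 22.4 TPM fed and at 87.0, 68.4, 70.0 and 83.5 TPM fasted (1.75 ± 0.14). Both were called higher under 3 scalings. With the trend on the longest coding length removed, they stood at 0.13 (adjusted p = 0.24) and 0.25 (adjusted p = 0.087). With the median length over all transcripts in its place, Kif11 was below 0. Kif11 and Ube2c carry the same kinds of promoter element in the sequences above, and their differences were 1.77 and -1.69 as deposited, 0.67 and -2.79 after centring.

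Mki67 was at 23.1, 18.9 and 23.9 TPM fed and at 48.8, 48.8, 41.9 and 40.1 TPM fasted (1.0 ± 0.12, adjusted p = 2.5e-05). Top2a was at 139, 129.7 and 129.9 TPM fed and at 173, 156, 158 and 171 TPM fasted (0.31 ± 0.08, adjusted p = 0.0058). The fasted libraries of both were higher without overlap as deposited, but after centring the differences were -0.09 for Mki67 and -0.78 for Top2a, and without the length trend -0.62 and -1.34. Ccnb1, at 151, 131 and 204 TPM fed and at 209.9, 179, 182 and 178 TPM fasted, was not called (0.23 ± 0.15, adjusted p = 0.16) and was -0.86 after centring.

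Of the G1 genes, Cdk2 was at 32.1, 26.2 and 32.0 TPM fed and at 82.3, 75.7, 70.2 and 79.9 TPM fasted (1.33 ± 0.11, adjusted p = 1.2e-06; 0.24 after centring and 0.29 without the length trend). Ccnd3 was at 239, 199 and 201 TPM fed and at 319, 361, 357 and 482 TPM fasted (0.82 ± 0.14; -0.27 after centring). Cdk6 was at 4.59, 7.27 and 4.88 TPM fed and at 7.32, 12.6, 9.91 and 12.1 TPM fasted (0.8 ± 0.21; -0.57 after quantile normalisation). The fasted group lay above the fed one in all 3 genes as deposited, and Cdk6 and Ccnd3 changed sign with the scaling. Cdk2 was below 0 once the trend on the median length over all transcripts was removed. Cdk4 was at 164, 132 and 181 TPM fed and at 189, 183, 188 and 189 TPM fasted, and was not called as deposited (0.25 ± 0.11, adjusted p = 0.058). Lmnb1, lamin B1 of the nuclear envelope, was at 43.7, 34.0 and 30.5 TPM fed and at 80.4, 74.5, 73.7 and 107 TPM fasted (1.19 ± 0.16; 0.1 after centring and -0.05 without the length trend).

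**Figure D4:**
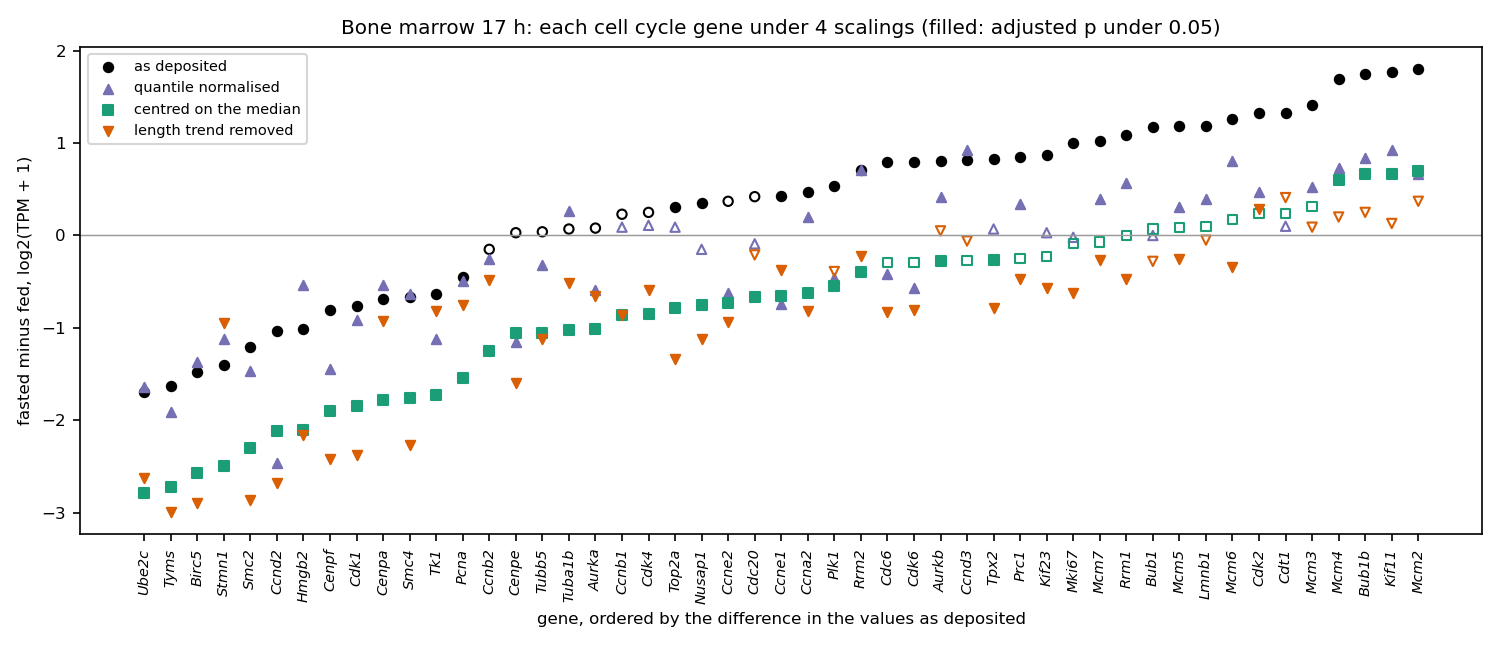
Fasted minus fed at 17 h on the log2(TPM + 1) scale (y axis) for each of 49 genes (x axis, ordered by the difference as deposited), with 1 symbol per scaling; filled symbols have an adjusted p under 0.05. The 13 genes on the left are below 0 with all 4 symbols filled, and on the right no gene has all 4 symbols filled above 0.

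The difference between fasted and fed libraries at 17 h followed transcript length across genes: Spearman's rho between a gene's difference and the length of its longest coding transcript was 0.58 over 8864 genes and 0.18 over the 49 members. Within libraries the level fell with length, at a rho of -0.5 to -0.47 in the fed and -0.23 to -0.16 in the fasted libraries, beside -0.21 to -0.13 at 4 h. Marker levels also differed, and not in 1 direction within a cell type. Of the monocyte markers, Ccr2 was at 544, 548 and 486 TPM fed and at 2223, 1934, 1889 and 1818 TPM fasted, whereas Ly6c2 was at 12471, 11205 and 12585 TPM fed and at 5659, 5024, 5293 and 4926 TPM fasted. Of the progenitor markers, Elane was at 2534, 1960.1 and 3049 TPM fed and at 844, 729, 718 and 923 TPM fasted, whereas Mpo was at 569, 417 and 391 TPM fed and at 669, 831, 762 and 1727 TPM fasted. In each of these genes the groups lay apart. The progenitor markers summed to 3777 to 5897 TPM fed and 2182 to 3426 TPM fasted, and the monocyte markers to 16505 to 17261 and 43807 to 56968 TPM. The dendritic cell markers (3 of 8 with values) summed to 497 to 754 TPM fed and 199 to 356 TPM fasted, and the neutrophil markers (4 of 12) to 193 to 237 and 764 to 1226 TPM. The part of length and of cell type in the members' differences was not tested beyond the scalings given.

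Among division genes outside the list, 23 of 44 further replication genes were called higher and 11 lower at 17 h as deposited (7 and 29 after centring), and 31 of 51 further mitosis genes higher and 11 lower (9 and 29 after centring). Of all genes 75.4% were called higher and 14.0% lower as deposited, and 40.9% and 36.4% after centring. Cks2 and Cks1b, small proteins that bind cyclin-dependent kinases, were called lower under all 4 scalings. Cks2 was at 684 ± 35.3 TPM (SD) fed and 121 ± 19.9 TPM fasted, and Cks1b at 623 ± 66.9 and 160.5 ± 21.1 TPM. Rpa3, a subunit of the single-strand binding complex, was at 176 ± 8.73 TPM fed and 45.4 ± 8.19 TPM fasted, lower under all 4 as well. In the other direction, Orc3 of the origin recognition complex went from 41.8 ± 3.34 to 133 ± 3.98 TPM and the condensin II subunit Ncapg2 from 5.48 ± 0.241 to 27.7 ± 4.69 TPM, called higher under all 4. Orc2, Dtl and Anln were called higher as deposited but not without the length trend, where their differences were -0.02, -0.07 and 0.14.

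Of the cycle transcription factors 18 of 19, and of the inhibitors of division 11 of 14, were called higher as deposited at 17 h and 1 of each lower, where 75.4% and 14.0% of all genes were, so that the inhibitors were near the background. After centring the counts were 7 higher and 4 lower, and 4 and 4, beside 40.9% and 36.4% of all genes. Rbl2, the pocket protein p130 that holds genes of the cycle off in resting cells, was at 7.39 ± 0.556 TPM fed and 57.1 ± 3.56 TPM fasted (2.79 ± 0.11, adjusted p = 7.2e-08), and higher under all 4 scalings, with 1.15 the lowest. Rb1 and E2f2 were also higher under all 4, from 10.02 ± 2.67 to 47.5 ± 2.89 TPM and from 12.3 ± 2.75 to 57.5 ± 6.85 TPM; Lin54, of the MuvB complex, was not without the length trend (0.02). Txnip, a thioredoxin-binding protein that also limits glucose uptake, was at 87.1 ± 12.4 TPM fed and 601 ± 9.76 TPM fasted, higher under all 4 with 1.55 the lowest. Btg1 went from 53.5 ± 2.19 to 199 ± 9.19 TPM and Ccng1 from 26.4 ± 1.96 to 93.0 ± 4.92 TPM, both called under all 4, while Ccng2 was not called without the length trend (0.1).

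The fasting difference at 17 h was set against that at 4 h as 1 contrast over the 15 marrow libraries. As deposited, 33 of 48 members were called higher in this contrast (a more positive difference at 17 h) and 11 lower, against 75.1% and 12.9% of 8844 genes and an all-gene median of 1.27. The counts were 21 and 13 after quantile normalisation (background 39.8% and 28.1%), 8 and 22 after centring (39.5% and 33.2%), and 5 and 26 without the length trend (33.0% and 26.2%). Called higher under all 4 scalings were 5 members, Cdk2, Mcm2, Mcm4, Bub1b and Kif11, and lower 10, Cdk1, Pcna, Tyms, Birc5, Cenpf, Ube2c, Hmgb2, Stmn1, Smc2 and Smc4, beside 24.1% and 8.83% of 8589 genes. Mcm4, for example, differed by -0.44 at 4 h and 1.69 at 17 h (contrast 2.13 ± 0.17, adjusted p = 6.1e-09), and Hmgb2 had a contrast of -0.94 ± 0.1 (adjusted p = 1.3e-07). Time and experiment cannot be told apart in this design, and the shift of the fed libraries of 17 h enters every one of these contrasts.

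In CCR2-/- marrow 2 division genes, the mitotic kinase gene Plk1 and the lamin gene Lmnb1, were called lower, about the share of all genes. The other 46 of 48 did not pass the test. Ccr2 itself was at 64.7, 62.3 and 60.8 TPM in the CCR2-/- libraries and at 2449, 2622 and 2338 TPM in the C57BL/6 ones. Of 48 members, 2 were called lower and 0 higher (limma; background 3.74% lower and 0.641% higher), and 21 had an unadjusted p under 0.05. Their median was -0.28 beside -0.03 for all genes, 47 of 48 were below 0 (55.9% of all genes), and the CCR2-/- group lay wholly below for 24 and wholly above for 0, where 22.2% and 11.2% of all genes did. Mitosis genes had a median of -0.34 (24 of 24 below 0, 17 without overlap), replication genes -0.27 (12 of 13, 5 without overlap), the chromatin group -0.21 and the G1 genes -0.12.

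Plk1, the polo kinase that drives entry into mitosis, was at 134, 85.7 and 90.8 TPM in C57BL/6 and at 63.6, 48.8 and 55.2 TPM in CCR2-/- libraries. It fell by 0.86 ± 0.17 (adjusted p = 0.046). Lmnb1 was at 177, 116 and 109 TPM and at 69.0, 59.4 and 75.4 TPM, and fell by 0.94 ± 0.18 (adjusted p = 0.044). Both were lower in 3 of 3 CCR2-/- libraries than in any C57BL/6 library and were called under all 4 scalings. Both lost the call without C57BL/6 library 1 or 2 or without CCR2-/- library 2 or 3 (adjusted p of 0.072 to 0.17) and with limma fitted without a mean-variance trend, where 0 members were called (background 0.337% lower and 0.185% higher). Without the length trend 4 were called lower (background 4.46% lower and 2.96% higher), the same pair with Cdc20 and Cdt1, named after their values were seen.

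Mki67 was at 161, 111 and 111 TPM in C57BL/6 and at 99.5, 86.5 and 70.0 TPM in CCR2-/- (-0.57 ± 0.17, adjusted p = 0.078). Top2a was at 547, 379 and 404 TPM and at 365, 344 and 319 TPM, and Ccnb1 at 443, 313 and 368 TPM and at 296, 282 and 288 TPM. In these 3 mitosis genes no CCR2-/- library reached a C57BL/6 one, and the differences of Top2a and Ccnb1 were -0.35 ± 0.13 and -0.36 ± 0.12. Cdk1 was at 213, 171 and 205 TPM and at 173, 169 and 182 TPM, and Pcna at 259, 198 and 232 TPM and at 196, 215 and 209 TPM. Both overlapped. Mcm5 was at 179.8, 114 and 125 TPM and at 96.7, 92.4 and 108 TPM (-0.47 ± 0.16, adjusted p = 0.11), without overlap.

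Ccnd3 was at 745, 537 and 564 TPM in C57BL/6 and at 504, 489.5 and 475 TPM in CCR2-/- (-0.32 ± 0.12), without overlap. Cdk4 was at 214, 188 and 204 TPM and at 188, 193 and 213 TPM, and Cdk6 at 11.02, 9.11 and 9.998 TPM and at 12.9, 8.22 and 7.92 TPM. The groups of both kinases overlapped, with differences of -0.03 ± 0.08 and -0.08 ± 0.18. C57BL/6 library 1 held the highest value of 43 of the 48 members, and without it the members' median was -0.15. The progenitor markers summed to 2432 TPM in that library and to 1419 to 2007 TPM in the other 5. Single markers of that list differed: Mpo was at 1437 TPM in it and at 680.2 to 959 TPM in the others, while Elane, Prtn3 and Ctsg, at 555, 216 and 129 TPM, were no higher there than in CCR2-/- libraries 1 and 3. The dendritic cell markers (3 of 8 with values) summed to 271 to 395 TPM in C57BL/6 and 479 to 655 TPM in CCR2-/- libraries, and the neutrophil markers (3 of 12) to 332 to 411 and 457 to 462 TPM, both without overlap. The part of these cell types in the result was not tested.

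Outside the list, 4 of 44 further replication genes and 6 of 52 further mitosis genes were called lower in CCR2-/- marrow and 0 higher, where 3.74% of all genes were lower and 0.641% higher, with medians of -0.21 and -0.29. Dnmt1, which copies DNA methylation at replication, fell from 96.2 ± 21.1 to 54.4 ± 4.47 TPM and the polymerase subunit Pold1 from 58.2 ± 14.3 to 29.2 ± 4.81 TPM, while the kinesin Kif18b fell from 45.8 ± 12.5 to 22.3 ± 3.58 TPM and the condensin subunit Ncapd2 from 88.1 ± 14.1 to 55.0 ± 3.77 TPM (adjusted p = 0.044 for all 4). E2f2 fell from 79.5 ± 11.3 to 43.6 ± 9.17 TPM (adjusted p = 0.044). Of 13 inhibitors of division, 3 were lower and 1 higher. Klf2 went from 195 ± 35.7 to 103 ± 26.7 TPM, Klf4 from 77.8 ± 18.7 to 37.2 ± 9.82 TPM and Cdkn1a, the kinase inhibitor p21, from 54.6 ± 20.4 to 26.1 ± 2.05 TPM. Txnip rose from 518 ± 46.0 to 688 ± 36.3 TPM (0.41 ± 0.08, adjusted p = 0.046). Cdkn1a was not called after quantile normalisation (adjusted p = 0.056) or centring (0.052).

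In the inflamed spinal cord, none of the 49 members was shown to differ between intermittently fasted and fed mice. Of 49 members, 0 were called (limma; background 1.58% higher and 0.859% lower), 1 had an unadjusted p under 0.05, and no group lay apart for any of them, where 10.6% of all genes lay wholly above and 4.68% wholly below. Differences ran from -0.98 to 0.49 with a median of -0.07 beside 0.26 for all genes. After quantile normalisation or centring 1 member was called lower, Cdc6, a replication licensing factor named after its values were seen (-0.84, adjusted p = 0.041 and 0.04). The backgrounds were then 3.19% and 2.39% lower and 5.43% and 5.18% higher. The spread within groups was wide: fed libraries 3 and 4 were far above fed libraries 1 and 2.

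Mki67 was at 15.02, 15.4, 53.1 and 60.3 TPM in the fed libraries and at 29.7, 28.1, 6.43 and 28.2 TPM in the fasted ones. Top2a was at 67.1, 63.8, 179.9 and 153 TPM fed and at 112, 80.4, 41.1 and 106 TPM fasted, and Ccnb1 at 110.4, 91.7, 343 and 245 TPM fed and at 229, 191, 186 and 216 TPM fasted. In each of these the 4 fed libraries formed a low and a high pair, and the fasted ones fell between them except for fasted library 3, which was lowest of all 8 for Mki67 and Top2a. Cdk1 was at 117, 105, 198 and 174 TPM fed and at 189, 135, 124 and 153 TPM fasted. Pcna was at 88.9, 83.5, 192 and 163 TPM fed and at 169, 127, 132 and 138 TPM fasted, and Mcm5 at 78.4, 66.0, 172 and 119.8 TPM fed and at 119, 74.0, 115 and 102 TPM fasted. The differences of these 6 genes ran from -0.54 ± 0.6 for Mki67 to 0.26 ± 0.39 for Ccnb1.

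The G1 genes differed in this pattern. Cdk4 was at 57.3, 59.0, 208 and 171 TPM fed and at 144, 142, 139 and 124 TPM fasted, and so followed the fed pairs. Ccnd3 was at 1029, 1079, 967 and 928 TPM fed and at 631, 910.5, 945 and 699.9 TPM fasted (-0.35 ± 0.2, adjusted p = 0.34) and did not. Ccnd2 was at 12.3, 14.1, 4.11 and 23.1 TPM fed and at 8.95, 6.99, 10.4 and 5.12 TPM fasted, and Cdk6 at 15.8, 10.6, 20.03 and 21.5 TPM fed and at 46.4, 20.4, 16.8 and 16.1 TPM fasted. All 4 overlapped between groups.

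Beside the low pair, Ngp, a granule protein of neutrophil precursors, stood at 52846 and 56754 TPM in fed libraries 1 and 2 and at 637 to 3395 TPM in the other 6, and Ccr2 at 49.8 and 57.8 TPM against 213 to 889 TPM. The mitosis genes summed to 1906 and 1757 TPM in that pair, 5005 and 3811 TPM in fed libraries 3 and 4 and 2524 to 3493 TPM in the fasted libraries. With fed libraries 3 and 4 as the only fed ones, an alternative chosen after the data were seen, 7 of 49 members were called lower in fasted libraries and 0 higher (background 5.3% lower and 3.23% higher), with a median of -0.53 beside -0.13 for all genes and 48 of 49 below 0. Beside this, monocyte markers summed to 21024 and 20541 TPM in fed libraries 3 and 4 and to 36483 to 50506 TPM in the fasted ones. Neutrophil markers summed to 5366 and 3162 TPM against 10057 to 17258 TPM, also without overlap. B cell markers (2 of 10 with values) summed to 618 and 502 against 63.96 to 182 TPM. Dendritic cell markers (3 of 8) summed to 143 and 390.4 against 31.7 to 66.5 TPM. The 7 called were Aurkb, Bub1, Bub1b, Ccna2, Prc1 and Tpx2 of mitosis and Cdc6 of replication, named after their values were seen, at -1.13 to -0.62. The part of these cell types, and of neutrophil RNA in this comparison and in that of all 8 libraries, was not tested.

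Fasted library 3 held the lowest value of 14 members. Its log2 ratio to the other fasted libraries had a Spearman's rho with transcript length of -0.5 over the 49 members and -0.18 over 8825 genes. Of the division genes outside the list, 0 of 42 further replication genes, 0 of 52 further mitosis genes and 0 of 19 transcription factors were called in limma, with 0, 4 and 0 at an unadjusted p under 0.05. Of 15 inhibitors of division, 1 was called: Btg2, an anti-proliferative gene, fell from 939 ± 430.0 to 267 ± 61.9 TPM (-1.72 ± 0.35, adjusted p = 0.042). It was not called after centring (adjusted p = 0.054) or without the length trend (0.06).

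**Figure D5:**
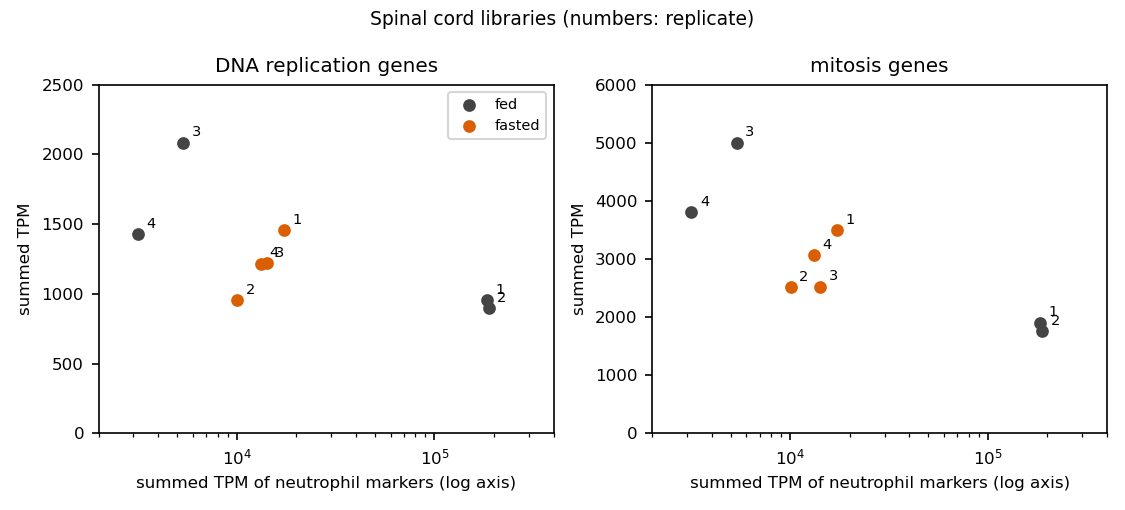
Summed TPM of the 13 replication genes (left) and the 24 mitosis genes (right) in each spinal cord library against the summed TPM of neutrophil markers (x axis, log scale; numbers are replicates). Fed libraries 1 and 2 lie far right, at 184001 and 187826 TPM of neutrophil markers, with the lowest sums of mitosis genes; for replication genes fasted library 2, at 954 TPM, is as low as fed library 1, at 955 TPM, and fed library 3 has the highest sum of both.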

How the data were processed

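Monocytes were sorted by FACS, RNA was taken up with the RNeasy Mini Kit and libraries were made with the Low Input Library Prep Kit v2, per the labels' protocols. The authors deposited 1 value per gene and library. These were read as TPM, because the deposited values of a library sum to 981503 to 991727, and kallisto 0.44.0 and GRCm38 are named in the submitters' processing notes. No source used here gives the annotation, the summing of transcripts to genes, the filter on genes or the number of reads. Counting error therefore cannot be given, and a count test could not be run. TPM is a share of a library, so a change in a few abundant genes moves all others. Rows whose symbol had become a date (13 to 15 per experiment) were left out.

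Each experiment was fitted alone with limma 3.58.1 in R 4.3.3 on log2(TPM + 1), with a mean-variance trend and robust variances, over genes with a mean of at least 1 TPM. Tests were two-sided, p-values were adjusted by Benjamini-Hochberg over all genes tested, and 0.05 was the threshold. The script was tested on simulated data that held no shift of the median gene and no trend on length. That test therefore does not cover the setting at 17 h. Alternatives were a pseudocount of 0.1, no filter, a mean of at least 10 TPM, quantile normalisation, centring on the median gene, no trend, no robust step, a replicate block and each library left out. Removing each library's trend on the length of a gene's longest protein-coding transcript (GENCODE M21, loess span 0.5), and the choice of fed spinal cord libraries 3 and 4, were added after the data were seen. The median length over all transcripts was tried first, and its values at 17 h are given as well.

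Named with values in each library were Mki67, Top2a, Mcm5, Pcna, Cdk1, Ccnb1, the D cyclins, Cdk4 and Cdk6, up to 4 called members per role with the smallest adjusted p, and, where none was called, members without overlap and with the largest fold. The members and all gene and marker lists were chosen with earlier results of these data known. Pcna, Tyms, Ccnb1, Ccnb2, Ccnd3 and Stmn1 have pseudogenes or related copies, and Tuba1b has Tuba1a and Tuba1c, so their values are uncertain. Promoters are from RefSeq (GRCm38.p6). Hepatocyte libraries were not used.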

Additional observations from a re-analysis of the deposited data

Results flagged for a closer look

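In 8 of 68 combinations of a gene and a group, 1 library stood far from the others of its group. Chance gives about 1 in 20 for independent values. Members were often extreme in the same library, so these rates cannot be compared. Ccnb1 stood at 369.8 TPM in fed marrow library 4 of 4 h against 283 to 289.5 TPM in the others, at 291 TPM in fasted library 1 of 4 h against 244 to 249 TPM, and at 209.9 TPM in fasted library 1 of 17 h against 178 to 182 TPM. Tubb5 stood at 232 TPM in fed library 3 of 4 h against 239.8 to 241 TPM, a small gap between values that lie close together. Mki67 stood at 78.9 TPM in fasted library 2 of 4 h against 107 to 110.5 TPM, and at 6.43 TPM in fasted spinal cord library 3 against 28.1 to 29.7 TPM. Mcm5 stood at 88.1 TPM in fasted library 4 of 17 h against 66.4 to 69.7 TPM, and Cdk6 at 46.4 TPM in fasted spinal cord library 1 against 16.1 to 20.4 TPM.

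Members were named in part for a small adjusted p in the contrast of 17 h with 4 h, so that their call in it was fixed in advance. Of all 8844 genes, 75.1% were called higher in that contrast and 12.9% lower. By the same limma contrast, the fasting difference at 17 h differed from that at 4 h for 23 named members. It was more positive at 17 h, on the log2(TPM + 1) scale, by 2.13 for Mcm4, 2.08 for Kif11, 2.07 for Bub1b, 1.62 for Lmnb1, 1.61 for Mcm6, 1.58 for Cdk2, 1.54 for Mcm5, 1.37 for Mcm7, 1.30 for Rrm1, 1.23 for Mki67, 1.19 for Kif23, 1.07 for Tpx2, 1.03 for Cdk6, 0.90 for Ccnd3, 0.90 for Ccne1, 0.58 for Top2a, 0.47 for Ccnb1, 0.43 for Cdk4 and 0.39 for Tuba1b. It was more negative for Stmn1 at -1.14, Hmgb2 at -0.94, Cdk1 at -0.64 and Pcna at -0.37. The median of all genes in this contrast was 1.27, and Cdk2, Mcm4, Bub1b and Kif11 of the first set and all 4 of the second were called under all 4 scalings.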

How the results depend on the processing

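At 17 h the split of calls moved with the scaling. The shares of all genes called under each scaling stand beside the same counts in the Results. Quantile normalisation gave 17 members higher and 22 lower (mitosis 5 and 11), with Mki67 at -0.02 and Cdk6 at -0.57. Centring gave 4 and 30 (replication 2 higher, mitosis 2 and 18), with Mki67 at -0.09, Top2a -0.78, Ccnb1 -0.86, Ccnd3 -0.27, Cdk4 -0.85, Cdk6 -0.29 and Mcm7 -0.07. Removing the length trend gave 1 and 36 (replication 0 and 9, mitosis 0 and 18), with Mki67 at -0.62, Top2a -1.34, Mcm5 -0.25, Ccnb1 -0.86, Ccnd3 -0.06, Cdk4 -0.59, Cdk6 -0.81, Mcm6 -0.34, Rrm1 -0.47, Mcm7 -0.27 and Lmnb1 -0.05. With the median length over all transcripts it gave 9 and 28 (replication 6 and 5, mitosis 3 and 17), with Mki67 at -1.01, Top2a -0.44, Mcm5 -0.39, Ccnb1 -0.64, Cdk4 -0.54, Cdk6 -0.26, Cdk2 -0.18, Lmnb1 -0.03 and Kif11 -0.08. Both length settings were chosen after seeing the data.

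In the contrast of 17 h with 4 h, quantile normalisation gave 21 members higher (mitosis 8), with Cdk6 at -0.41 and Ccne1 at -0.25. Centring gave 8 and 22 (replication 5 higher, mitosis 2 and 14), with Top2a at -0.57, Ccnb1 -0.67, Ccnd3 -0.24, Cdk4 -0.71, Cdk6 -0.11, Ccne1 -0.25, Tuba1b -0.76 and Tpx2 -0.08. Removing the length trend gave 5 and 26 (replication 2 and 4, mitosis 2 and 16), with Mki67 at -0.45, Top2a -1.17, Mcm5 -0.00, Ccnb1 -0.72, Ccnd3 -0.06, Cdk4 -0.49, Cdk6 -0.62, Rrm1 -0.38, Mcm6 -0.11, Mcm7 -0.04, Tuba1b -0.23, Kif23 -0.36 and Tpx2 -0.65.

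In CCR2-/- marrow, 0 members were lower with no trend (mitosis 0) and 4 without the length trend (replication 1, mitosis 2), where Cdk1 was 0.00, Cdk4 0.02 and Cdk6 0.11. Centring gave Cdk4 at 0.06 and Cdk6 at 0.01, and quantile normalisation Cdk6 at 0.03. In spinal cord, quantile normalisation gave 1 member lower (replication 1; Pcna -0.04, Cdk1 -0.17), centring 1 (replication 1; Pcna -0.03, Cdk1 -0.17), and removing the length trend left Pcna at -0.15 and Cdk1 at -0.09. With fed libraries 3 and 4 as the fed ones, 7 were lower (replication 1, mitosis 6), with Pcna at -0.33, Cdk1 -0.32, Ccnb1 -0.50 and Cdk4 -0.46. For these, the cause was not tested.

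With each library left out in turn, 0 to 1 members were called lower at 4 h and 0 higher (mitosis 0 to 1 lower). At 17 h, 26 to 30 were higher and 13 to 14 lower (replication 10 and 3, mitosis 11 to 13 and 7 to 8). With all libraries, 75.4% of all genes were higher there and 14.0% lower. In CCR2-/- marrow, 0 to 5 were lower (replication 0 to 1, mitosis 0 to 3), where 3.74% of all genes were with all libraries. In spinal cord 0 were called. In the contrast, 32 to 36 were higher and 11 to 12 lower (replication 10 and 2 to 3, mitosis 13 to 17 and 7). With all libraries, 75.1% of all genes were higher in it and 12.9% lower. Signs changed for Cdk4 (-0.08 to 0.01) and Cdk6 (-0.28 to 0.04) in CCR2-/- marrow, and in spinal cord for Mcm5 (-0.22 to 0.24), Pcna (-0.0 to 0.4), Cdk1 (-0.1 to 0.2) and Ccnb1 (-0.04 to 0.59).

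The labels give groups shared replicate numbers, but in no comparison did every same-numbered pair deviate together: correlations of their deviations were -0.341 to -0.045 at 4 h, -0.276 to 0.128 at 17 h and -0.068 to -0.008 in spinal cord. In CCR2-/- marrow pairs 1 and 3 did, at 0.322 and 0.321 and each best with its own number, and pair 2 did not, at -0.079, so the numbers were not taken as pairs. With the replicate number as a block, 26 members were higher and 13 lower at 17 h, against 74.7% and 13.6% of all genes. In the contrast 33 were higher and 11 lower, against 73.6% and 12.3%. In CCR2-/- marrow 11 were lower (replication 4, mitosis 6), against 12.4% of all genes, where 2 were lower without the block. At 4 h and in spinal cord 0 were called, against 0.223% and 0.738% of all genes higher and 0.0636% and 0.573% lower. Depth is unknown, and groups of 3 or 4 libraries limit precision throughout.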
